A study of Mus musculus with 12 samples.

Results

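The genes described here are 38 genes of ribosome biogenesis, the work of making ribosomal RNA and building it into subunits. They were taken as a fixed list of symbols and kept where at least 20 unique molecular identifiers (UMIs) were counted over all plates, and all 38 passed, out of 19463 genes with a row. The cells were LSK cells, a flow cytometry fraction named for lacking lineage markers and carrying Sca-1 and Kit, taken from day 18.5 fetal livers of C57BL/6J mice. This fraction holds blood stem cells and multipotent progenitors. The 4 genotypes were profiled by SORT-seq, which counts 3′ mRNA ends of single cells in plate wells. They were the double mutant, Pcna K164R/K164R;Rev1-/- (4 plates), the Rev1 knockout, Rev1-/- (3 plates), homozygous Pcna K164R (2 plates) and wild type, WT (3 plates). Rev1 encodes a translesion DNA polymerase, and K164R replaces the lysine of Pcna, the replication clamp, that is ubiquitinated when replication meets damaged template. The labels give both alleles as homozygous in the double mutant and name no Cre or tissue-specific driver. Nothing in the labels says that plates of a genotype came from separate animals, so each p-value reflects how plates vary, some of which may be technical.

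Ribosome biogenesis begins in the nucleolus, where RNA polymerase I transcribes a long precursor RNA from which most ribosomal RNAs are cut. Box C/D and box H/ACA particles guide the chemical modification of this RNA, the small subunit processome folds and cuts its first part toward the 40S subunit, and a succession of assembly factors carries the rest toward the 60S subunit. The genes of this machinery are often expressed together in growing cells, MYC is among their known activators, and blood stem cells are known for a low rate of protein synthesis that their maturing progeny exceed.

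Wells with at least 1000 UMIs outside the spike-in rows were kept, 3088 of 4608, and summed per plate, which gave 212938 to 11617420 UMIs a plate. Rev1 itself was counted at 1.33, 2.50 and 8.68 CPM (UMIs scaled to a common plate total, and for single genes also by TMM) in double mutant replicates 1, 2 and 3 and at 13.4 CPM in the library labelled double mutant replicate 4. The value of replicate 3 rests on very few UMIs of Rev1, as this plate held 212938 UMIs, the fewest of all. Rev1 knockout plates had 5.62, 1.26 and 3.70 CPM and Pcna K164R plates 10.5 and 7.51 CPM, against 10.5, 18.4 and 11.98 CPM in WT plates. The library labelled double mutant replicate 4 therefore went against its label for Rev1, although 3′ tags may lie outside the deleted part, and calls that rest on it are given with and without it. The K164R substitution cannot be read from counts. Double mutant replicate 3 also stood apart, with 82 kept wells, a median of 1730 UMIs per well, and 46.5% of its UMIs in 5 transcripts that took 0.269 to 1.11% elsewhere and were singled out after their values were seen (Kcnq1ot1, Gm17821, A630089N07Rik, Vmn2r55 and Grk4). The TMM factor of this plate was 0.549, against 0.973 to 1.11 in the other plates. TMM scaling therefore raised its single-gene CPM relative to theirs. Of 6 stem and progenitor markers (Ly6a, Kit, Cd34, Flt3, Hlf and Meis1), only Ly6a, the Sca-1 gene, and Kit belong to the definition of LSK given above. All 6 were detected in every plate except that Ly6a was at 0 in double mutant replicate 3. Their summed level was 301 to 859 CPM in the double mutant, 1347 to 1590 CPM in the Rev1 knockout and 1333 to 1453 CPM in Pcna K164R, against 1550 to 1845 CPM in WT. The summed level of 22 erythroid markers, 19 of which had a row, was 667 to 3496 CPM in the double mutant, 515 to 1259 CPM in the Rev1 knockout and 1488 to 1709 CPM in Pcna K164R, against 885 to 1405 CPM in WT. Macrophage markers (11 genes) were at 221 to 391 CPM in the double mutant, against 78.2 to 625 CPM in WT. Hepatocyte markers (9 genes) were at 25.0 to 34.1 CPM in the double mutant, against 41.7 to 59.5 CPM in WT. Wells were called erythroid-negative where Klf1, a transcription factor of red cell development, and Rhd and Rhag, proteins of the red cell membrane, all had 0 UMIs. Klf1 rose in the double mutant against WT, with a log2 fold change of 2.29 ± 0.53 (SE, adjusted p = 0.0364, edgeR), but 1.17 ± 0.56 (adjusted p = 0.474, edgeR) with the library labelled double mutant replicate 4 left out. It also missed the threshold without double mutant replicate 2, WT replicate 2 or 3, or either Pcna K164R plate (adjusted p from 0.0531 to 0.122, edgeR). Of kept wells, 45.7, 29.1 and 82.9% were erythroid-negative in double mutant replicates 1, 2 and 3, as were 35.5% in the library labelled double mutant replicate 4, 74.1 to 96.0% in Rev1 knockout plates and 62.1 and 77.1% in Pcna K164R plates, against 58.8, 92.5 and 83.6% in WT plates. This class depends on well depth, which differed between plates. With every well first thinned to 1000 UMIs, 84.0, 77.6 and 91.5% were erythroid-negative in double mutant replicates 1, 2 and 3. It was 70.1% in the library labelled double mutant replicate 4, 91.4 to 99.7% in Rev1 knockout plates and 89.5 and 92.1% in Pcna K164R plates, against 91.3, 97.4 and 98.2% in WT plates.

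Together the 38 genes took a larger share of the counted mRNA ends in most mutant plates than in any WT plate. In all kept wells the 38 genes gave 1.17, 1.19 and 0.541% of the UMIs in double mutant replicates 1, 2 and 3 and 1.09% in the library labelled double mutant replicate 4. The share was 0.883, 0.863 and 0.931% in Rev1 knockout plates and 1.05 and 0.905% in Pcna K164R plates, against 0.851, 0.677 and 0.726% in WT plates. Every mutant plate except double mutant replicate 3 was above every WT plate. With the 5 transcripts named above left out of the total, double mutant replicate 3 was at 1.01%, against 0.684 to 0.857% in WT. Npm1, the nucleolar chaperone nucleophosmin, gave 34.5 to 44.6% of these UMIs in double mutant plates, 34.3 to 40.5% in Rev1 knockout plates and 40.4 to 41.6% in Pcna K164R plates, against 34.9 to 38.5% in WT plates. Without Npm1 the share was 0.349 to 0.712% in the double mutant, 0.525 to 0.612% in the Rev1 knockout and 0.528 to 0.627% in Pcna K164R, against 0.422 to 0.523% in WT. Well by well, the median share was 1.07, 1.11 and 0.673% in double mutant replicates 1, 2 and 3 and 0.995% in the library labelled double mutant replicate 4, 0.776 to 0.807% in Rev1 knockout plates and 0.953 and 0.840% in Pcna K164R plates, against 0.618 to 0.711% in WT plates. The lowest 10% of wells lay under 0.731, 0.713 and 0.208% in double mutant replicates 1, 2 and 3 and under 0.691% in the library labelled double mutant replicate 4, against 0.365 to 0.487% in WT plates.

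**Figure D1:**
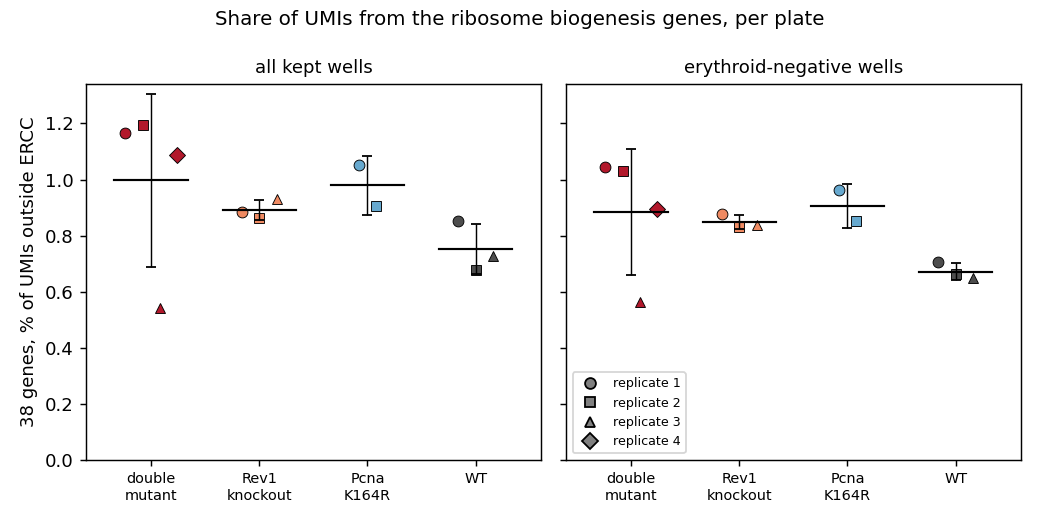
Percent of UMIs outside the spike-in rows that came from the 38 genes, for each plate (points; shapes mark replicate numbers) with the mean and SD of each genotype (bars), in all kept wells (left) and in erythroid-negative wells (right). Double mutant replicate 3 lies lowest, at 0.541% and 0.562%, and the 3 WT plates lie between 0.677 and 0.851% in all kept wells and between 0.648 and 0.705% in erythroid-negative wells.

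Between the double mutant and WT, 5 of the 38 genes rose and none fell at an adjusted p under 0.05 (edgeR quasi-likelihood test, Benjamini-Hochberg over 12221 genes, genotype and sort session as terms). The 5 were Wdr55, Mrto4, Bysl, Nolc1 and Nhp2, and they sit in 4 of the 6 roles into which the 38 fall. Over all genes tested, 1.8% rose and 2.41% fell in this comparison, 4.21% in all. In 13 of the 38 every double mutant library was above every WT plate after TMM scaling, which raised double mutant replicate 3, as in 4.75% of all genes. With double mutant replicate 3 left out this held for 28 of the 38, and for 18.9% of all genes. The fitted log2 fold changes of the 38 ranged from 0.18 for Rrp1b to 1.31 for Wdr55 with a median of 0.53, while the median of all genes tested was -0.04. All 38 were above 0, as were 46.6% of all genes, and 24 of the 38 had an unadjusted p under 0.05, as did 2778 of the 12221 genes. Others just missed the threshold, such as Bop1 at 0.76 ± 0.20 (SE, adjusted p = 0.0510, edgeR), Rrp12 at 0.78 ± 0.21 (adjusted p = 0.0574, edgeR) and Ncl at 0.84 ± 0.24 (adjusted p = 0.0640, edgeR). With the library totals as the only scaling, the median of all genes moved to -0.22, that of the 38 was 0.33, and Wdr55 and Mrto4 were called (share of all genes not given). DESeq2 called 21 (5.06% of its genes rose), RLE factors in place of TMM 6 (2.14%) and the fit with no filter on low counts 9 (3.05%).

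The number called depended on single libraries. It was 20 without double mutant replicate 3 and 22 without Rev1 knockout replicate 1, the other plate of its sort session, where 9.06% and 9.70% of all genes tested rose. With either plate gone, the session term absorbs the other, so both fits compare nearly the same plates and are not separate checks. The number called was 0 with the library labelled double mutant replicate 4 left out, where 0.0165% of all genes tested rose and the median of the 38 was 0.40. The role medians were then 0.75 for scaffold and chaperone genes, 0.51 for 60S assembly, 0.36 for 40S maturation, 0.26 for polymerase I transcription and 0.25 each for the box H/ACA and box C/D genes. The number called was 4 without either Pcna K164R plate, 2 and 1 without double mutant replicates 1 and 2, 3, 1 and 1 without WT replicates 1, 2 and 3, and 3 without either Rev1 knockout replicate 2 or 3. The share of all genes that rose is not given for these fits. It varied from 0.0165 to 9.70% among the left-out libraries above, so these counts alone do not set the 38 apart from other genes. Within session 1 (double mutant replicates 1 and 2, both Pcna K164R plates and WT replicate 1) no gene of the 38 was called and the median was 0.45. Within session 3 (the library labelled double mutant replicate 4, Rev1 knockout replicates 2 and 3 and WT replicates 2 and 3) 17 were called and the median was 0.73, beside 6% of all genes that rose. The sample titles name 5 flow cells, and none carried both WT and double mutant plates. With flow cell in place of session, none was called and the median was 0.70.

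**Figure D2:**
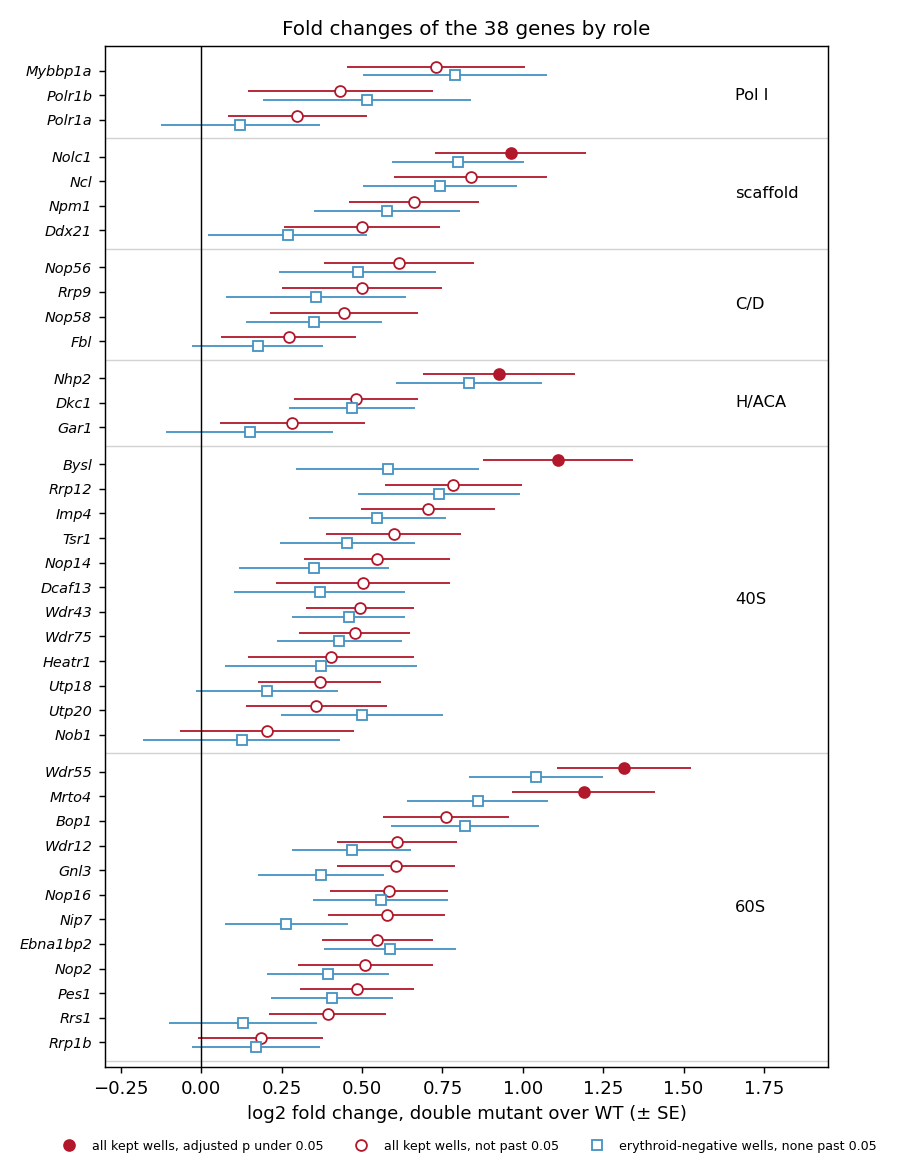
Log2 fold change of each of the 38 genes, double mutant over WT, with its standard error, in all kept wells (red circles, filled where the adjusted p is under 0.05) and in erythroid-negative wells (blue squares, none past the threshold), grouped by role. All 38 points of each set lie right of 0, and the 5 filled points are Nolc1, Nhp2, Bysl, Wdr55 and Mrto4.

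Among the 3 genes of RNA polymerase I transcription none passed the test, and their median log2 fold change was 0.43. They were Polr1a and Polr1b, the largest subunits of the enzyme, and Mybbp1a, a nucleolar protein that acts in transcription and processing of ribosomal RNA. Mybbp1a had 257, 256 and 469 CPM in double mutant replicates 1, 2 and 3 and 206 CPM in the library labelled double mutant replicate 4, against 183, 127 and 152 CPM in WT plates. All 4 double mutant libraries lay above all 3 WT plates, and the one far from the rest was replicate 3, which held 54 UMIs of the gene. Its log2 fold change was 0.73 ± 0.28 (SE, adjusted p = 0.141, edgeR). Polr1a had a log2 fold change of 0.30 ± 0.22 and Polr1b one of 0.43 ± 0.29, both with overlapping plates.

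The 4 nucleolar scaffold and chaperone genes had the highest median of the 6 roles, 0.75, and 1 of them passed. Nolc1 (chr19:46075863-46085530, plus strand, GRCm38), the phosphoprotein that chaperones both kinds of modification particle, had 255, 262 and 356 CPM in double mutant replicates 1, 2 and 3 and 294 CPM in the library labelled double mutant replicate 4. It had 146, 159 and 190 CPM in Rev1 knockout plates and 214 and 150 CPM in Pcna K164R plates, against 177, 112 and 143 CPM in WT plates. After TMM scaling every double mutant library was above every other plate, while both single-mutant genotypes overlapped WT. By library totals alone replicate 3 was above all WT plates but not above all single-mutant plates. Nolc1 rose with a log2 fold change of 0.96 ± 0.24 (SE, adjusted p = 0.0417, edgeR), a mean of 292 ± 46.1 CPM in the double mutant against 144 ± 32.7 CPM in WT (SD, n = 4 and 3). Npm1, named after its values were seen because it gives the most UMIs, had 5348, 5123 and 3541 CPM in double mutant replicates 1, 2 and 3 and 3653 CPM in the library labelled double mutant replicate 4, against 3139, 2288 and 2286 CPM in WT plates. After TMM scaling the groups did not overlap, but by library totals alone double mutant replicate 3 was below every WT plate. The log2 fold change of Npm1 was 0.66 ± 0.20 (adjusted p = 0.0823, edgeR). Ncl, nucleolin, which binds nascent ribosomal RNA, and the RNA helicase Ddx21 had log2 fold changes of 0.84 ± 0.24 and 0.50 ± 0.24.

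No gene of the 4 box C/D particle genes passed, with a median of 0.47. This group holds the methyltransferase Fbl, the core proteins Nop56 and Nop58, and Rrp9, the protein specific to the U3 particle. Nop56 had 823, 727 and 738 CPM in double mutant replicates 1, 2 and 3 and 535 CPM in the library labelled double mutant replicate 4, 669, 546 and 596 CPM in Rev1 knockout plates and 758 and 435 CPM in Pcna K164R plates, against 568, 298 and 363 CPM in WT plates. The library labelled double mutant replicate 4 lay inside the WT range, and WT replicate 1 was well above the other WT plates. The log2 fold change of Nop56 was 0.62 ± 0.23 (SE, adjusted p = 0.141, edgeR). Fbl stood lowest in the group at 0.27 ± 0.21.

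Among the 3 box H/ACA particle genes, which guide pseudouridylation, Nhp2 rose, and the pseudouridine synthase Dkc1 and the core protein Gar1 did not pass. Nhp2 (chr11:51619735-51623714, plus strand, GRCm38), a core protein of the particle, had 282, 242 and 86.8 CPM in double mutant replicates 1, 2 and 3 and 298 CPM in the library labelled double mutant replicate 4, 123, 134 and 178 CPM in Rev1 knockout plates and 187 and 195 CPM in Pcna K164R plates, against 141, 118 and 142 CPM in WT plates. Double mutant replicate 3, with 10 UMIs of Nhp2, was below every WT plate, and the other double mutant libraries were above every other plate. Its log2 fold change was 0.93 ± 0.24 (SE, adjusted p = 0.0486, edgeR) and 1.05 without double mutant replicate 3. Dkc1 had a log2 fold change of 0.48 ± 0.19 and Gar1 one of 0.28 ± 0.23.

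Of the 12 genes of the small subunit processome and 40S maturation 1 rose, Bysl, and the median was 0.50. Bysl (chr17:47599331-47611492, minus strand, GRCm38) encodes bystin, whose yeast counterpart Enp1 stays on the pre-40S particle from the nucleolus to the cytoplasm. It had 57.1, 48.5 and 34.7 CPM in double mutant replicates 1, 2 and 3 and 66.5 CPM in the library labelled double mutant replicate 4, 26.7, 22.9 and 34.3 CPM in Rev1 knockout plates and 38.04 and 28.1 CPM in Pcna K164R plates, against 28.5, 22.5 and 26.9 CPM in WT plates. After TMM scaling all double mutant libraries were above all WT plates, replicate 3 on 4 UMIs. By library totals alone replicate 3 was below all WT plates for Bysl. The log2 fold change of Bysl was 1.11 ± 0.23 (SE, adjusted p = 0.0253, edgeR). The export factor Rrp12 followed at 0.78, the processome protein Imp4 at 0.71 and the late 40S factor Tsr1 at 0.60, none past the threshold. Nob1, the nuclease that makes the last cut of 18S ribosomal RNA, had one of the lowest fold changes, at 0.20 ± 0.27, with a mean of 62.1 ± 38.4 CPM in the double mutant and 66.5 ± 2.92 CPM in WT (SD, n = 4 and 3), 1 UMI being counted in double mutant replicate 3.

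Of the 12 genes of 60S assembly 2 rose, Wdr55 and Mrto4, which had the highest fold changes of the 38, and the median was 0.58. Wdr55 (chr18:36760220-36763810, plus strand; coordinates of genes are those of GENCODE M21, GRCm38) encodes a nucleolar WD-repeat protein whose yeast counterpart, Jip5, acts in 60S biogenesis. It had 112, 126 and 95.5 CPM in double mutant replicates 1, 2 and 3 and 119 CPM in the library labelled double mutant replicate 4, 59.1, 52.4 and 60.7 CPM in Rev1 knockout plates and 91.9 and 65.4 CPM in Pcna K164R plates, against 59.9, 34.1 and 39.6 CPM in WT plates. After TMM scaling every double mutant library was above every plate of the other genotypes, replicate 3 on 11 UMIs, and both Pcna K164R plates were above all WT plates. By library totals alone double mutant replicate 3 was below WT replicate 1. The log2 fold change of Wdr55 between the double mutant and WT was 1.31 ± 0.21 (SE, adjusted p = 0.0106, edgeR), with means of 113 ± 13.2 CPM in the double mutant and 44.5 ± 13.6 CPM in WT (SD, n = 4 and 3). Mrto4 (chr4:139347435-139352576, minus strand), the counterpart of yeast Mrt4, which holds the place of the ribosomal stalk on the pre-60S particle, had 80.9, 103 and 69.4 CPM in double mutant replicates 1, 2 and 3 and 73.8 CPM in the library labelled double mutant replicate 4. It had 49.99, 47.7 and 58.0 CPM in Rev1 knockout plates and 64.0 and 58.9 CPM in Pcna K164R plates, against 55.3, 21.2 and 24.7 CPM in WT plates. After TMM scaling all double mutant libraries were above all other plates, replicate 3 on 8 UMIs. WT replicate 1 lay among the single-mutant plates, and the other WT plates were below every other plate. By library totals alone double mutant replicate 3 was below WT replicate 1. Mrto4 rose with a log2 fold change of 1.19 ± 0.22 (SE, adjusted p = 0.0188, edgeR). Bop1, Pes1 and Wdr12, which act as a complex in 60S assembly, had log2 fold changes of 0.76, 0.48 and 0.61, and Rrp1b the lowest of all, 0.18 ± 0.19.

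**Figure D3:**
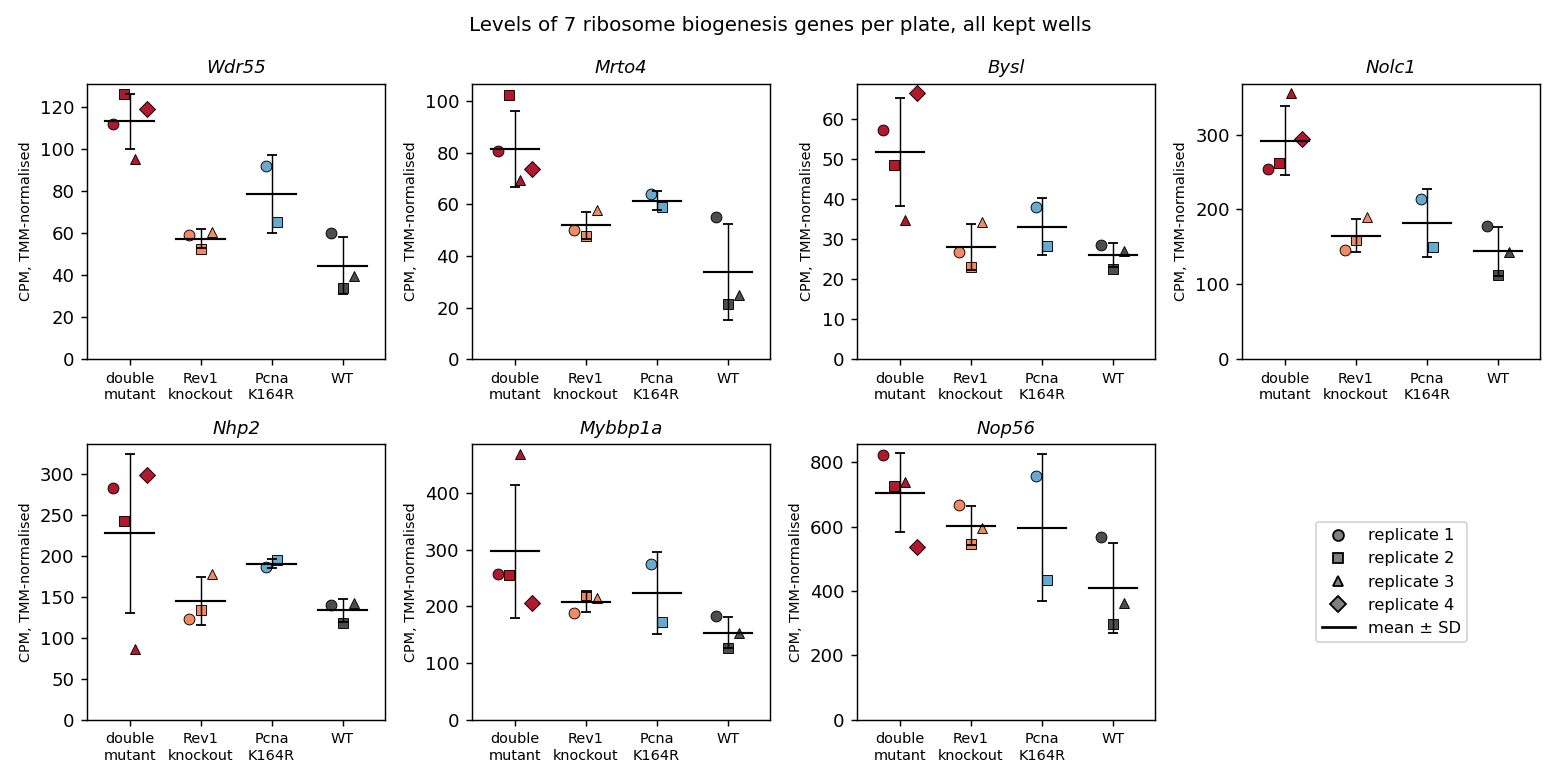
TMM-normalised CPM of the 5 genes past the threshold and of Mybbp1a and Nop56, for each plate (points; shapes mark replicate numbers) with the mean and SD of each genotype (bars), in all kept wells. For Wdr55 the double mutant libraries lie between 95.5 and 126 CPM and the WT plates between 34.1 and 59.9 CPM, and for Nhp2 double mutant replicate 3 lies below every WT plate.

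Over 28 alternative settings and left-out libraries, the fold changes of the 5 genes all stayed above 0. Wdr55 passed in 21 of the 28 (adjusted p from 1.9e-07 to 0.300, edgeR or DESeq2), and the library without which it no longer passed was the one labelled double mutant replicate 4 (log2 fold change 1.06, adjusted p = 0.151). Mrto4 passed in 18, Bysl in 15, Nolc1 in 13 and Nhp2 in 10. With the library labelled double mutant replicate 4 left out, the log2 fold changes were 0.89 for Mrto4, 0.85 for Bysl, 0.89 for Nolc1 and 0.63 for Nhp2. Nhp2 kept its call without Rev1 knockout replicate 1 or double mutant replicate 3, which give nearly the same fit, and lost it without any other plate.

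The sequences before the transcription starts of the genes that rose are shown because MYC and ETS family factors are known to bind genes of this kind. RefSeq promoters (GRCm38.p6) matched 31 of the 38 by symbol, among them 4 of the 5 that rose. The 250 bases before each start were searched on both strands for the E-box CACGTG and for CCGGAAG, a core that ETS factors bind, and matches are in capitals, printed 5′ to 3′ on the gene's strand. The E-box was in 3 of 31 (9.68%), against 6.86% of all 27025 genes with a promoter and 10.1% of the tested ones. The ETS core was in 7 of 31 (22.6%), against 7.83% of all and 15.8% of the tested ones. Mrto4 (chr4:139352577-139352826, minus strand) and Bysl (chr17:47611493-47611742, minus strand) held neither. Nolc1 (chr19:46075597-46075846, plus strand) and Nhp2 (chr11:51619523-51619772, plus strand) held the ETS core, beginning 14 and 23 bases before the RefSeq start. For Nhp2 the GENCODE start given above, 51619735, lies inside this window, so the core falls within the gene by that annotation. Nop2 (chr6:125131633-125131882, plus strand), a ribosomal RNA methyltransferase that did not pass, is shown as a member that, like Utp18, holds both, in its case 60 and 38 bases before the start. A match describes letters and not a bound site.
Mrto4: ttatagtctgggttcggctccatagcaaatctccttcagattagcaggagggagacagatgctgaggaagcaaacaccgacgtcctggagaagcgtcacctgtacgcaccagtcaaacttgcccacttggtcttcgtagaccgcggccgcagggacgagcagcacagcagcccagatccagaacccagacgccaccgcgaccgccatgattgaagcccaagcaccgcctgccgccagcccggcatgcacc
Bysl: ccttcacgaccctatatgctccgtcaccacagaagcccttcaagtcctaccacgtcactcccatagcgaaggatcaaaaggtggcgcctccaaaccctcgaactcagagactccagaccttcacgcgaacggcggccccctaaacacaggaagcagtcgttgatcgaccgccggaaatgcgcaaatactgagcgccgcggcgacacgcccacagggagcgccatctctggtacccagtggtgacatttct
Nolc1: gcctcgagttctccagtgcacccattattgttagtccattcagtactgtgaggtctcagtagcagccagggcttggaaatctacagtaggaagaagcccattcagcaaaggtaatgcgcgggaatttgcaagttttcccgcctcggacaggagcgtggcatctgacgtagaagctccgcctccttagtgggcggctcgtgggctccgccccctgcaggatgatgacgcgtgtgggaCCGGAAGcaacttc
Nhp2: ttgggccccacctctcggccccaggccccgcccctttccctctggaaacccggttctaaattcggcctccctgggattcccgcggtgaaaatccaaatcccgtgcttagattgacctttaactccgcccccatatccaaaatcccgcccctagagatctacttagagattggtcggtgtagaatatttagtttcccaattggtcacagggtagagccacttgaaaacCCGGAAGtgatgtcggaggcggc
Nop2: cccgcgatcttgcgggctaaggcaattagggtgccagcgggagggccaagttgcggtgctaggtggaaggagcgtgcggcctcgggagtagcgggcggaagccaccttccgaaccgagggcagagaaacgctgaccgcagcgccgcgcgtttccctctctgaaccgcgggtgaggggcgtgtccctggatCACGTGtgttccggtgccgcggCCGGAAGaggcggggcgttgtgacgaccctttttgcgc

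The genes that rose were among those whose level differed most between erythroid-positive and erythroid-negative wells of the same plate. In the 11 plates other than double mutant replicate 3, the ratio of CPM in erythroid-positive over erythroid-negative wells had a median over plates above 1 for all 38 genes, and above 1 for 43.6% of 5753 genes with at least 1000 UMIs in erythroid-negative and 200 in erythroid-positive wells. The median of these ratios was 1.22 for the 38 and 0.968 for the 5753. Mrto4 had the highest, 1.90 (range 1.504 to 2.75 over 11 plates), then Wdr55 at 1.67 (1.46 to 2.73), Nolc1 at 1.61 (1.10 to 2.10), Nhp2 at 1.54 (1.23 to 2.42), Ddx21 (range 1.26 to 1.88) and Bysl at 1.46 (1.04 to 2.44). The 5 genes that rose in the double mutant were thus among the 6 with the highest ratio. Each was higher in erythroid-positive wells in 11 of 11 plates, but so were 17 of the 38 in all. How many of the 5753 genes were so was not counted. In WT plates alone the median ratio was 1.93 for Mrto4, 1.92 for Nhp2, 1.81 for Nolc1, 1.63 for Wdr55 and 1.44 for Bysl, which put them at ranks 1, 2, 3, 7 and 11 of the 38. Nob1, Utp20 and Rrp1b stood at the other end, at 1.02, 1.06 and 1.07. Erythroid-positive wells were also deeper, with median depths of 12936 to 38583 UMIs in these 11 plates, against 7450 to 25338 UMIs in erythroid-negative wells. With every well thinned to 1000 UMIs before it was classed, the 38 genes still gave more UMIs per 1000 in erythroid-positive wells in each of 12 plates, for example 12.2 against 10.4 in double mutant replicate 1 and 10.8 against 7.03 in WT replicate 1, though some plates held very few such wells.

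**Figure D4:**
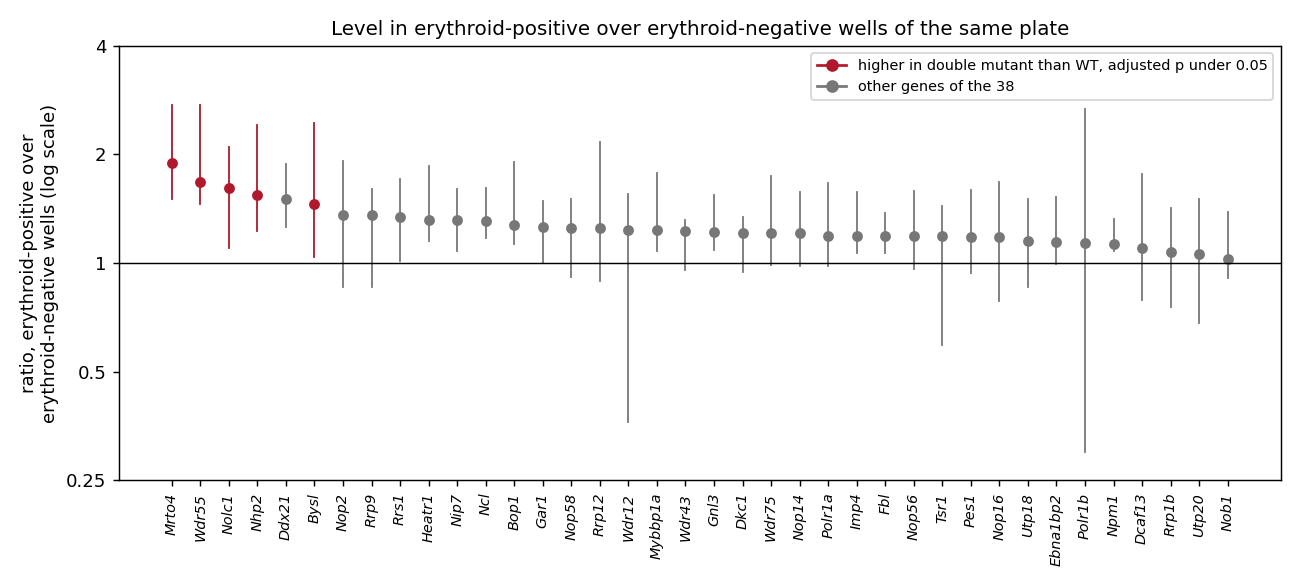
Ratio of the level (CPM) in erythroid-positive over erythroid-negative wells of the same plate for each of the 38 genes, on a log axis: points are medians and lines the range over 11 plates, without double mutant replicate 3. The 5 genes that rose in the double mutant (red) hold 5 of the 6 highest medians, from 1.46 for Bysl to 1.90 for Mrto4.

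Within erythroid-negative wells the direction was the same and no gene passed. Of 2105 such wells the double mutant held 163, 78 and 68 in replicates 1, 2 and 3 and 38 in the library labelled double mutant replicate 4. None of the 38 was called against WT by edgeR over 11716 genes, where 0.0939% of all genes rose and 0.299% fell, 0.393% in all. All 38 log2 fold changes were above 0, with a median of 0.46 against -0.04 for all genes tested, and 17 had an unadjusted p under 0.05, as did 1578 of all genes. DESeq2 called 9 (1.4% of its genes rose), and RLE factors in place of TMM gave 1 (0.128%). Wdr55 was nearest to the threshold, at 1.04 ± 0.21 (SE, adjusted p = 0.0518, edgeR), and passed in 7 of 21 alternatives (adjusted p from 0.00032 to 0.567). It had 73.6, 83.2 and 77.1 CPM in double mutant replicates 1, 2 and 3 and 72.9 CPM in the library labelled double mutant replicate 4, 55.2, 48.6 and 42.6 CPM in Rev1 knockout plates and 69.2 and 48.4 CPM in Pcna K164R plates, against 38.5, 32.4 and 35.4 CPM in WT plates, so that all mutant plates were above all WT plates. The log2 fold change of Bysl was smaller here, 0.58 ± 0.28 against 1.11 in all kept wells, and so was that of Mrto4, 0.86 ± 0.22 against 1.19, while Nhp2 (0.83) and Nolc1 (0.80) moved less. Whether the fold changes differ between the well populations was not tested, since the wells are shared. The number called was 5 without double mutant replicate 3 (1.31% of all genes rose), 7 without Rev1 knockout replicate 1 (1.7%), 1 without either Pcna K164R plate and 0 without the library labelled double mutant replicate 4, with medians of 0.38 to 0.49 over all left-out plates. The summed stem and progenitor markers in these wells were at 358 to 1249 CPM in the double mutant, against 1766 to 1991 CPM in WT. The erythroid markers were at 396 to 684 CPM in the double mutant, against 456 to 622 CPM in WT. The part of these markers in the fold changes was not tested.

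Neither single mutant gave a call by edgeR, and in both the median of the 38 genes was above 0. It was below that of the double mutant with TMM scaling, but with library totals as the only scaling the medians were 0.33 in the double mutant and 0.40 in the Rev1 knockout. In the Rev1 knockout against WT, 0 of 38 and 0% of all genes passed (edgeR; 7 of 38 and 1116 of all genes at an unadjusted p under 0.05), with 31 of 38 above 0 and a median log2 fold change of 0.30 against 0.01 for all genes. DESeq2 called 1 of the 38. Mrto4 was highest, at 0.96 ± 0.25 (adjusted p = 0.386, edgeR), then Nop56 at 0.68 ± 0.25 (adjusted p = 0.524, edgeR). In Pcna K164R against WT, 0 of 38 and 0% of all genes passed (edgeR; 2 of 38 and 239 of all genes at an unadjusted p under 0.05; 0 by DESeq2), with 33 of 38 above 0 and a median of 0.19 against -0.02. Nip7, a 60S factor, was highest there at 0.68 ± 0.23, then Wdr55 at 0.61 ± 0.26 (both with an adjusted p of 1.00, edgeR). In erythroid-negative wells the medians were 0.46 for the double mutant, 0.36 for the Rev1 knockout and 0.27 for Pcna K164R, all relative to the same WT plates. Limited to wells of 10000 to 20000 UMIs, they were 0.25, 0.069 and 0.065 in that order. In erythroid-negative wells of any kept depth, edgeR called no gene of the 38 for either single mutant, beside 0% and 0.00854% of all genes. At an unadjusted p under 0.05 there were 8 and 4 of the 38, and 1137 and 290 of the 11716 genes. DESeq2 called 1 there in the Rev1 knockout and 0 in Pcna K164R. Of the 38, edgeR called 1 in the Rev1 knockout with either plate of session 2 (Rev1 knockout replicate 1 and double mutant replicate 3) left out, nearly the same fit. The share of all genes is not given for these calls by DESeq2 and with plates left out. Such counts alone do not set the 38 apart from other genes. In these erythroid-negative wells, with no limit to 10000 to 20000 UMIs, 20 of the 38 had all Rev1 knockout plates above all WT plates (8.38% of all genes did). Both Pcna K164R plates were above all WT plates for 19 (11.9% of all genes). The double mutant had 14 such genes (3.36%), and 21 (11.1%) without double mutant replicate 3. These counts are of TMM-scaled CPM, with a factor of 0.580 for double mutant replicate 3.

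No gene of the 38 passed between the double mutant and either single mutant by edgeR. Against the Rev1 knockout none passed (0.663% of all genes rose and 1.09% fell), with 8 of 38 at an unadjusted p under 0.05, as were 2338 of the 12221 genes. The median log2 fold change was 0.28, which was -0.0014 with library totals as the only scaling and 0.14 without the library labelled double mutant replicate 4. DESeq2 called 6, and edgeR called 1 with either plate of session 2 left out, nearly the same fit. Bysl (0.94 ± 0.27, adjusted p = 0.102) and Wdr55 (0.81 ± 0.23, adjusted p = 0.0997) were highest in that comparison by edgeR. Against Pcna K164R none passed (0% of all genes rose and 0.0409% fell), with 9 of 38 at an unadjusted p under 0.05, as were 1175 of all genes. The median was 0.38 and DESeq2 called 5. The interaction, which asks whether the double mutant departs from the sum of the 2 single-mutant log2 changes, gave 0 calls among the 38 and 0% of all genes by edgeR (0 of 38 and 640 of all genes at an unadjusted p under 0.05; 0 of 38 by DESeq2), with a median of 0.08 in all kept wells and -0.10 in erythroid-negative wells. Its sign depended on the scaling, at -0.18 in all kept wells with library totals as the only scaling. In erythroid-negative wells none passed against the Rev1 knockout (0.444% of all genes did, 0.154% higher), against Pcna K164R (0.0171%) or in the interaction (0.00854%). Of the 38, 2, 3 and 2 had an unadjusted p under 0.05 by edgeR, beside 1524, 630 and 551 of the 11716 genes, and DESeq2 gave 0 calls. For the calls by DESeq2 and with plates left out, the share of all genes is not given in this paragraph. Those counts alone do not set the 38 apart from other genes. All these comparisons share plates, so their values are not independent.

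The share was higher in deeper wells in most plates, though not from every depth bin to the next. In wells of 10000 to 20000 UMIs, the 38 genes took a median of 0.943 and 0.844% of a well's UMIs in double mutant replicates 1 and 2 (49 and 39 wells) and 0.829% in the library labelled double mutant replicate 4 (19 wells). The medians were 0.707, 0.760 and 0.717% in Rev1 knockout plates and 0.874 and 0.807% in Pcna K164R plates, against 0.699, 0.637 and 0.697% in WT plates, and double mutant replicate 3 had 3 such wells at 0.166%. In this bin the medians of the other 3 double mutant libraries and of all single-mutant plates were above those of all WT plates. Rev1 knockout replicate 3 was not above WT replicate 3 by its pooled share (0.725 against 0.727%) or by its median in erythroid-negative wells (0.684 against 0.702%). Other bins did not keep this order for the single mutants. At 20000 to 40000 UMIs Rev1 knockout plates had 0.913, 0.862 and 0.896%, against 0.945% in WT replicate 2 (19 wells). At 1000 to 5000 UMIs all Rev1 knockout plates and Pcna K164R replicate 2 were below WT replicate 1, which had 0.735% (20 wells). In that bin double mutant replicates 1, 2 and 3 had 0.856, 1.02 and 0.704% (73 wells in replicate 3). The library labelled double mutant replicate 4 had 0.983%, and WT replicates 2 and 3 had 0.519 and 0.457%. Among wells of at least 40000 UMIs the double mutant libraries had 1.21, 1.27 and 1.31% (110, 109 and 16 wells), against 1.24% in WT replicate 1 (32 wells), which lay among them. The other WT plates had 3 and 7 such wells at 0.829 and 0.577%. Median depth was 30735, 34853 and 1730 UMIs in double mutant replicates 1, 2 and 3 and 22571 UMIs in the library labelled double mutant replicate 4, 16503 to 17836 UMIs in Rev1 knockout plates and 21161.5 and 15548.5 UMIs in Pcna K164R plates, against 14960, 7537 and 12280 UMIs in WT plates. With the fit limited to wells of 10000 to 20000 UMIs and double mutant replicate 3 left out, the median log2 fold change between the double mutant and WT was 0.25, 34 of 38 were above 0 and 1 gene, Nhp2, was called. The share of all genes called in that fit is not given. With every well thinned to 1000 UMIs the median was 0.53 over the 37 genes tested and none was called.

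**Figure D5:**
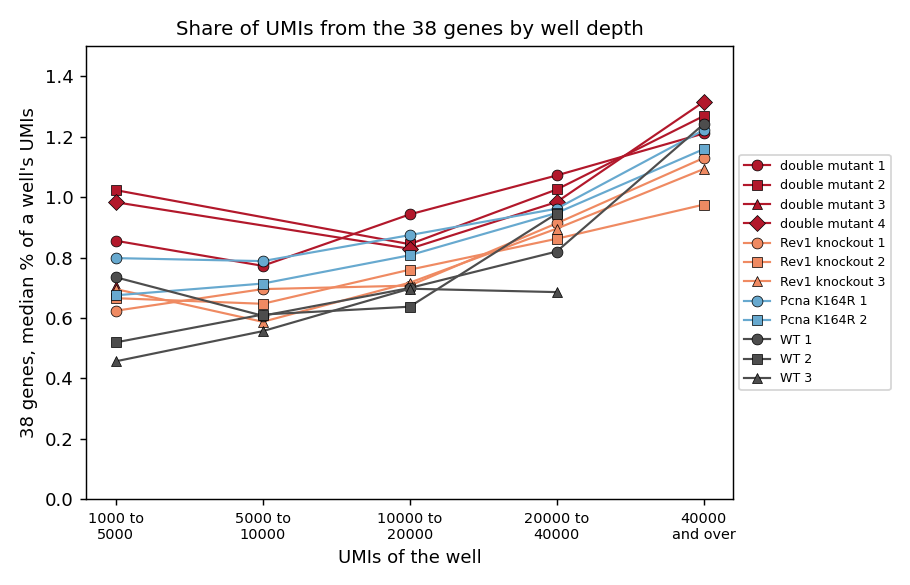
Median percent of a well's UMIs that came from the 38 genes, by the number of UMIs in the well, for each plate with at least 10 wells in the bin; colours mark genotypes and shapes replicate numbers. The share is higher in deeper wells in most plates, and in wells of 10000 to 20000 UMIs the WT plates lie lowest, at 0.637 to 0.699%.

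Other genes of ribosome biogenesis, 141 listed by stage with 140 tested, also had mostly positive fold changes between the double mutant and WT, 131 of 140. In this comparison 8 of the 140 rose and none fell, beside the 1.8% of all genes that rose, with a median of 0.41. None of them rose with the library labelled double mutant replicate 4 left out, where the median was 0.26 and 16 had an unadjusted p under 0.05 (edgeR). None rose either without double mutant replicate 1 or 2 or WT replicate 2 or 3. The count was 1 without WT replicate 1 or Rev1 knockout replicate 3, 3 without Rev1 knockout replicate 2 and 6 without either Pcna K164R plate. It was 40 without double mutant replicate 3 (9.06% of all genes rose) and 42 in the nearly equal fit without Rev1 knockout replicate 1 (9.70%). Of 48 other small subunit genes 5 rose, among them Noc4l (0.99 ± 0.21, adjusted p = 0.0253, edgeR) and Tbl3 (0.77 ± 0.18, adjusted p = 0.0356, edgeR), both processome proteins, and the 18S ribosomal RNA methyltransferase Wbscr22 (0.72 ± 0.17, adjusted p = 0.0368, edgeR). Of 53 other large subunit genes 3 rose, led by Rpf2 (0.80 ± 0.17, adjusted p = 0.0266, edgeR), which brings the 5S particle to the pre-60S particle. Noc4l had 81.6, 81.9 and 43.4 CPM in double mutant replicates 1, 2 and 3 and 80.3 CPM in the library labelled double mutant replicate 4, against 44.4, 28.7 and 41.7 CPM in WT plates, with replicate 3 inside the WT range. No gene passed among 17 exosome and trimming genes (median 0.33), 12 other polymerase I transcription genes (median 0.14) and 10 other modification particle and assembly genes (median 0.32). In erythroid-negative wells none of the 140 was called by edgeR and the median was 0.26. At an unadjusted p under 0.05 there were 27 of the 140 and 1578 of the 11716 genes. None was called by edgeR in the other comparisons, where 2 to 22 had an unadjusted p under 0.05. The 22 were in the double mutant against the Rev1 knockout in all kept wells. A larger share of all genes had one there, 2338 of 12221. The 2 were in Pcna K164R against WT and in the interaction in all kept wells, beside 239 and 640 of all genes. DESeq2 results were not summarised for these lists.

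Myc itself passed no test between the double mutant and WT. It had 120, 148 and 26.0 CPM in double mutant replicates 1, 2 and 3 and 274 CPM in the library labelled double mutant replicate 4, 87.1, 95.1 and 181 CPM in Rev1 knockout plates and 158 and 274 CPM in Pcna K164R plates, against 139, 338 and 110 CPM in WT plates. The groups overlapped throughout, and the log2 fold change between the double mutant and WT was -0.04 ± 0.43 (SE, adjusted p = 0.981, edgeR). Summed S phase genes were at 1273 to 5427 CPM in the double mutant, against 3329 to 4182 CPM in WT, and summed G2 and mitosis genes at 1414 to 4645 CPM in the double mutant, against 3015 to 3388 CPM in WT. The lowest double mutant values were those of replicate 3, and the part of cycling in the fold changes was not tested.

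The annotation gives features that the list did not use. The 38 genes lie on 18 chromosomes, and no chromosome holds most of them. Of the 38, 7 (18.4%) carry small nucleolar RNA genes within their bodies on the same strand, 21 in all, as do 1.70% of 10970 protein-coding genes tested (GENCODE M21). The hosts are Ncl, Nop56, Nop58, Dkc1, Wdr43, Tsr1 and Gnl3, whose introns release RNAs of the modification particles, and none of them passed the test. In the annotation 19 of the 38 overlap a gene on the opposite strand and 0 overlap one on the same strand, and no source used here says whether reads were counted by strand. Of the genes that rose, Wdr55 (5608 UMIs) overlaps Dnd1 (193 UMIs), Bysl (2607 UMIs) overlaps Ccnd3 (1798 UMIs) and Nhp2 (13241 UMIs) overlaps Rmnd5b (2765 UMIs), so reads of each pair may have been mixed.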

How the data were processed

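Reads of the SORT-seq plates, one plate per sample with 384 wells, were aligned by the authors with BWA 0.7.15 to GRCm38, per the submitters' processing notes. The deposited tables give per gene and well UMI counts, read counts and transcript counts, which are estimated counts. Transcript counts matched the correction for collisions among 4096 random barcodes within 0.00499. The sources used here do not give the counting strand. Plates were grouped by the genotype in the labels, with no sample left out.

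UMI counts of wells with at least 1000 UMIs outside spike-in rows were summed per plate and tested in edgeR 4.0.16 (R 4.3.3) with TMM scaling, filterByExpr, genotype and 3 sort sessions as terms (6 residual degrees of freedom), a quasi-likelihood test and Benjamini-Hochberg adjustment, threshold 0.05. Standard errors are the log2 fold change over the root of F. CPM values of single genes are scaled by TMM, and sums over lists are not. DESeq2 1.42.0 was an alternative. The members and lists were chosen with earlier results of these data known. Genes named in full passed the threshold in any comparison, plus the member with the highest mean CPM of a role with none. The depth of 212938 to 11617420 UMIs a plate sets the precision, and 19 of the 38 genes had under 10 UMIs in double mutant replicate 3. The edgeR step was tested on simulated counts.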

Additional observations from a re-analysis of the deposited data

Results flagged for a closer look

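Double mutant replicate 3 lay below the other double mutant libraries by more than a gap test for single outlying samples allows, in 3 of 18 groups of values examined, and chance flags about 1 in 20. Its 38 genes gave 0.541% of UMIs, against 1.09 to 1.19% in the other double mutant libraries. Their mean log2(CPM + 2) in all kept wells was 6.55 there, against 7.11 to 7.21. In erythroid-negative wells it was 6.40 there, against 6.84 to 6.90. The plate also held 82 kept wells, a median of 1730 UMIs per well and 46.5% of its UMIs in the 5 transcripts named in the report, and the part of these in the low values was not tested.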

How the results depend on the processing

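For the double mutant against WT in all kept wells, where 5 genes were called, the count was 21 with DESeq2, 9 with no filter on low counts, 17 within session 3, 2 with library totals alone, 1 in wells of 10000 to 20000 UMIs (median log2 fold change 0.25), and 0 within session 1, with flow cell in place of session, with read counts, with wells thinned to 1000 UMIs and without both double mutant replicate 3 and the library labelled double mutant replicate 4. It ranged from 0 to 22 with 1 plate left out. In erythroid-negative wells it was 9 with DESeq2, 1 with RLE factors, 1 with no session term, and 0 to 7 with 1 plate left out, and the median was 0.25 in wells of 10000 to 20000 UMIs. For the Rev1 knockout against WT, DESeq2 and no filter each called 1 in all kept wells, and in erythroid-negative wells DESeq2 called 1, leaving out 1 plate gave 0 to 1, and the median was 0.069 in wells of 10000 to 20000 UMIs, where that of Pcna K164R was 0.065. For the double mutant against the Rev1 knockout, DESeq2 called 6, no session term 2, session 3 alone 3, no filter 1, and leaving out 1 plate gave 0 to 1. Its median was -0.0014 with library totals alone and 0.50 with flow cell in all kept wells, and -0.024 with library totals alone in erythroid-negative wells. Against Pcna K164R DESeq2 called 5. The median interaction was -0.18 with library totals alone in all kept wells, and in erythroid-negative wells -0.28 with library totals alone, 0.14 with thinning and 0.20 in wells of 10000 to 20000 UMIs. The cause of these shifts was not tested. Since the share of all genes called is not set beside the counts in this section, they alone do not set the 38 apart from other genes. Of the other counts and medians 514 stayed within their limits, and among single genes 261 values kept their side of the threshold, 19 passed it newly, 63 lost it and 0 reversed. The wells of 10000 to 20000 UMIs and the pair of libraries left out together were chosen after seeing the data. No paired analysis was possible because the labels carry no replicate numbers shared across genotypes, and the sort session that plates do share is already a term of the main fit. Double mutant replicate 3, with 19 of the 38 genes under 10 UMIs, limits what its plate can show.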
